A study of Mus musculus with 4 samples.

Results

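The regions described are the 5 kb bins of the mouse mm9 genome that the authors listed as differential in 5-hydroxymethylcytosine (5hmC) between LSH knockout and wild-type embryonic stem (ES) cells. All bins of the ES list on chromosomes 1 to 19 were taken, which gave 8527 bins of the 17148 distinct bins on the ES and fibroblast lists of the study. Together they span 42.6 Mb. On these chromosomes 478767 bins have sequence, and 1.78% of them were listed. The comparison set 1 library of ES cells labelled wild type (ES-WT) against 1 library labelled knockout (ES-KO). Both cultures were grown in serum medium with leukaemia inhibitory factor (LIF), and the groups differ in LSH by their labels alone. The sources used here give no cell line, clone, passage or allele. The study holds 4 libraries in all, the other two from mouse embryonic fibroblasts (MEFs), 1 per genotype.

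LSH, encoded by Hells, is a remodeler of the SNF2 family that slides nucleosomes with energy from ATP and is needed for normal DNA methylation, above all in repeated sequence. 5hmC is made from 5-methylcytosine by the TET dioxygenases, and ES cells, which express Tet1 and Tet2, carry much of it in gene bodies, at enhancers and beside CpG-rich promoters. It can be an intermediate on the way to unmethylated cytosine or persist as a mark of its own.

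The list gives positions only. It holds no direction, level, fold change or p-value, so a bin is called listed and nothing is said of whether 5hmC was higher or lower. With 1 library a genotype there is no replicate error and no test. A difference due to LSH, to the clone and to the library cannot be told apart. The labelled cell type could not be checked against marker genes, since no expression was measured. Hells itself (chromosome 19, 39005405 to 39045541) had 0 of its 10 bins listed, and the nearest listed bin lay 520 kb away, which checks nothing about the knockout. Brackets give exact 95% binomial intervals that cover counting error over bins, and bins are not replicates of a condition.

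Listed bins were richer in CpG than the genome, and sequence from listed bins is shown first to make this visible. The windows below are the 200 bases with most CpG in the listed bin with most CpG of 6 genes from the rankings given further on, and of the listed bin with the fewest CpG. They are on the plus strand of mm9, 5′ to 3′, with each CpG in capitals, and bases annotated as UTR were avoided.
C130039O16Rik (chr12:85559519-85559718): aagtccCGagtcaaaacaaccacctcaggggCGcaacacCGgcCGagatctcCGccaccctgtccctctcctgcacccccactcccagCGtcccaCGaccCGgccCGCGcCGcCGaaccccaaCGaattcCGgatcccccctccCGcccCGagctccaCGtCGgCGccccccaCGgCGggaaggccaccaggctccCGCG
Dapp1 (chr3:137617479-137617678): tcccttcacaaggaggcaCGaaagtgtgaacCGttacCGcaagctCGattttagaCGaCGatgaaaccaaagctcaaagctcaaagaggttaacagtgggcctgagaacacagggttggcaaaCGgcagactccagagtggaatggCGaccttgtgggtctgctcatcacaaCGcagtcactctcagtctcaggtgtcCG
D19Wsu162e (chr19:46693555-46693754): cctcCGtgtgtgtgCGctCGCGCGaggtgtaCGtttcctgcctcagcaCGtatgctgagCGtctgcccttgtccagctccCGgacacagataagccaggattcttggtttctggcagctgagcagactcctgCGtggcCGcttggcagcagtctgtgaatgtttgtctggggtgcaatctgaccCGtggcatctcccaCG
Rab31 (chr17:66121615-66121814): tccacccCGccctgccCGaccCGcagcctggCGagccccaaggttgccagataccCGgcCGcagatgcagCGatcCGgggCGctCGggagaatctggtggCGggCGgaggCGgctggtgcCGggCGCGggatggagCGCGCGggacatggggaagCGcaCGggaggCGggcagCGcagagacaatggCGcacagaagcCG
Rps6ka2 (chr17:7420209-7420408): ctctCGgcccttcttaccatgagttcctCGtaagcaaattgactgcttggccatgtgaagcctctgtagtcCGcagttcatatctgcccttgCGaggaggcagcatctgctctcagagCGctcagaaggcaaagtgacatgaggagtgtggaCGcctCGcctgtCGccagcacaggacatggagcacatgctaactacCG
Tacc2 (chr7:137887918-137888117): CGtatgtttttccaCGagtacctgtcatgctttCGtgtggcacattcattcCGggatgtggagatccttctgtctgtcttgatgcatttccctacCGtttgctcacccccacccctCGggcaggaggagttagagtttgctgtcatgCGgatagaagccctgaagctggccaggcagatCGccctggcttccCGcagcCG
Tmem167 intron (chr13:90264353-90264552): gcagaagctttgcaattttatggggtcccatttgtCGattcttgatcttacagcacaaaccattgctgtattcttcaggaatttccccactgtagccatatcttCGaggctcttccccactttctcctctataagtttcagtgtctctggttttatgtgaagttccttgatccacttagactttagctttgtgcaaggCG
The Rab31 window held 25 CpG and the C130039O16Rik window held 23, both inside the listed promoter bin of the gene and in annotated introns. The Tacc2 window, with 10 CpG, overlapped a coding exon. Dapp1, with 10, overlapped an exon without coding sequence, and D19Wsu162e and Rps6ka2, with 13 and 9, were intronic. The Tmem167 bin, with 11 CpG in its 5 kb, was the poorest in CpG, and its best window held 3. The richest listed bin held 340.

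Listed bins had a median of 12.6 CpG per kb (quartiles 10 and 15.6) against 7.2 in all bins, and a median GC content of 46.4% against 41.4%. CpG density and place in genes overlap strongly, so most listed shares are given beside a second share, called here the CpG-decile share. The CpG-decile share is the share of all bins that were listed in the same deciles of CpG density. It describes what CpG density goes with and is not a test. Within every decile from the second upward, listed bins had a higher median GC content than bins that were not listed, 49.3% against 48.1% in the highest decile. In the lowest decile the order was turned, 36.5% against 37%, over 10 listed bins. Bins at or in genes were also more frequent among listed bins in each decile, at 80.9% against 73.1% in the highest.

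Bins made up mostly of repeated sequence, the part of the genome for which LSH is best known, were nearly absent from the list. Of 45087 bins in which more than 50% of sampled 32-base words recur elsewhere in the genome, 14 were listed, or 0.0311% [0.017% to 0.0521%], where the CpG-decile share was 1.87%. Of the 219826 bins with under 5% repeated words 2.40% were listed [2.33% to 2.46%]. Reads are hard to place in repeated sequence, and the sources used here do not say how such reads were treated, so the list does not show whether 5hmC there was unaltered.

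Promoters, exons, introns and intergenic sequence held 11.7%, 34.7%, 23.6% and 30.0% of the listed bins. A promoter bin overlapped the 1 kb either side of a gene start, and an exon bin overlapped an exon but no promoter. By class, 3.24% of promoter bins were listed [3.04% to 3.44%], 3.56% of exon bins [3.43% to 3.69%], 1.93% of intron bins [1.85% to 2.01%] and 0.982% of intergenic bins [0.945% to 1.02%]. The CpG-decile shares were 3.84%, 2.70%, 1.69% and 1.28%. Under this class rule exon and intron bins lay above their CpG-decile share, and promoter and intergenic bins below it. No CpG-decile share was computed under the other rules that follow, so this order was not checked with them. The class of a 5 kb bin depends on the rule: by the bin's midpoint 3.80% of listed bins were promoter, 7.31% exon and 53.8% intron, and with the start of every transcript in place of each gene model 21.0% were promoter bins.

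The plot of listed share by CpG decile shows where the classes part. In the 9th decile 5.35% of promoter bins, 5.41% of exon bins and 5.22% of intron bins were listed. In the highest decile the exon share was 8.35% [7.90% to 8.82%] and the intron share 6.51% [5.92% to 7.14%], while the promoter share was 4.38% [4.06% to 4.72%]. Promoters were the single class of the 4 with a lower share in the highest decile than in the one before it. Intergenic bins had 3.96% in the 9th decile and 4.19% in the highest. The highest decile is wide, from 14.6 to 99.6 CpG per kb, and promoter bins with a CpG island had a median of 23.6. Classes within it are therefore not matched for CpG content. The same limit holds for the CpG-decile shares of promoters and of bins near gene starts.

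**Figure D1:**
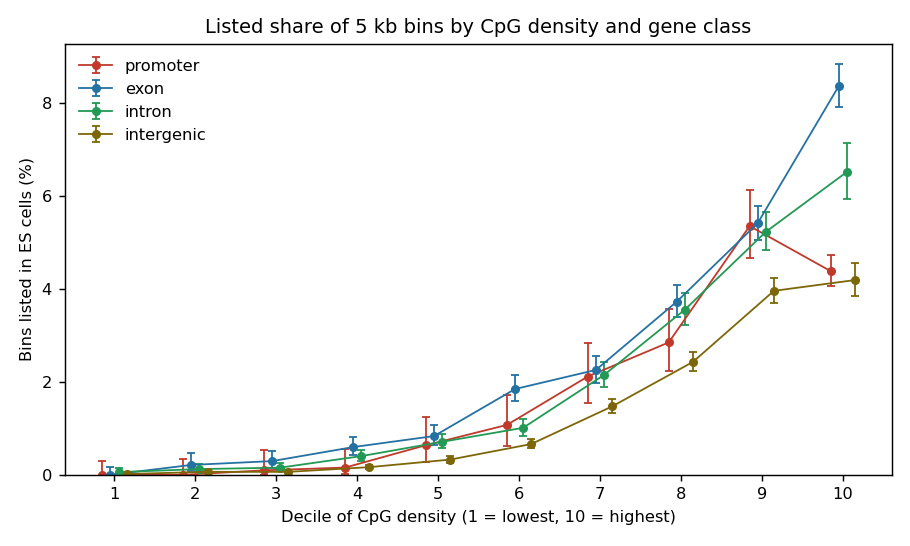
Listed share of 5 kb bins (%, y axis) in each decile of CpG density (x axis) for promoter, exon, intron and intergenic bins; points are shares and bars exact 95% binomial intervals over bins. In the highest decile exon bins reach 8.35% and promoter bins stand at 4.38%.

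CpG islands, the CpG-dense stretches that are mostly unmethylated at promoters, also differed by class. Islands were found on windows of at least 500 bases with GC above 55% and an observed-to-expected CpG ratio above 0.65. Of 22939 bins with such an island, 818 were listed, or 3.57% [3.33% to 3.81%], where the CpG-decile share was 5.36%. Promoter bins with an island had 3.58% listed against 5.48% by CpG decile, and promoter bins without one had 2.95% against 2.46%. Exon bins with an island had 6.53% [5.67% to 7.48%] against 5.49%, whereas intron and intergenic bins with an island had 1.89% and 2.06% against 4.94% and 5.04%. Bins that touched an island bin but held no island had 3.43% [3.23% to 3.63%] against 2.57%. By this 500-base definition the listed share was below the CpG-decile share over promoter, intron and intergenic islands. It was above it beside islands and over exonic islands. The highest decile runs from 14.6 to 99.6 CpG per kb, and bins with an island had a median of 21.4. Within that decile the CpG-decile share does not match island bins to bins of equal CpG content. By the looser definition of 200-base windows 55.6% of listed bins held an island, so the share of the list that is called island depends on the definition.

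The distance from a gene start gave a matching order. The listed share was 3.34% for bins with their midpoint within 2.5 kb of a start, where the CpG-decile share was 4.16%. From 5 to 10 kb it was 3.07% against 2.35%, from 10 to 20 kb 2.81% against 2.28%, and from 50 to 100 kb 1.77% against 1.78%. Beyond 500 kb 45 of 42690 bins were listed, or 0.105% [0.0769% to 0.141%], against 0.479% by CpG decile. The median distance to a start was 22258 bp for listed bins and 57293 bp for all bins.

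**Figure D2:**
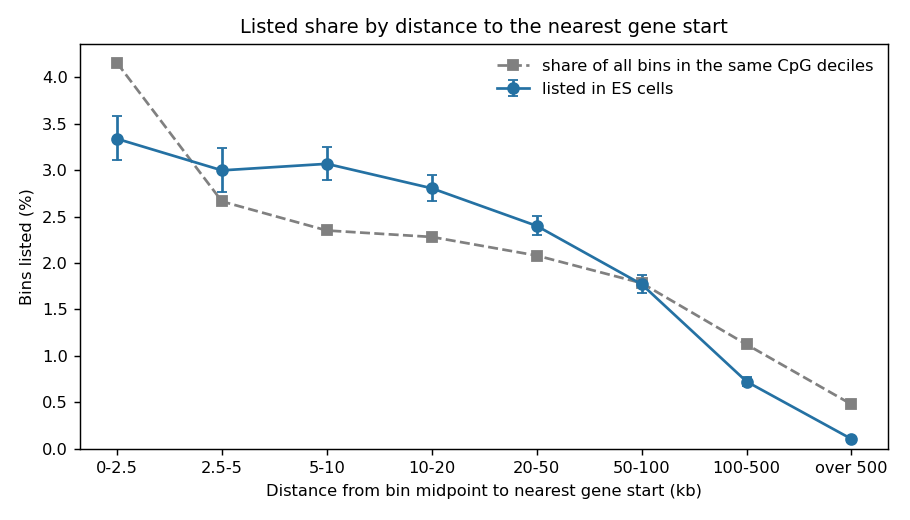
Listed share of bins (%, y axis) by distance from the bin's midpoint to the nearest gene start (kb, x axis); circles are the share listed in ES cells with exact 95% binomial intervals, and squares the share of all bins in the same CpG deciles. Circles lie below squares within 2.5 kb, above them from 2.5 to 50 kb, and below them again beyond 100 kb.

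Gene ends were listed as readily as exons. Bins within 1 kb of a gene end and not within 1 kb of a start had 3.84% listed [3.59% to 4.10%], against 2.82% by CpG decile. Coding exon bins away from starts and ends had 3.46% [3.31% to 3.61%] against 2.64%. Along the 4889 gene bodies of at least 50 kb, split into 5 parts, the share was 2.34% in the part nearest the start, 2.04% in the middle part and 2.54% [2.36% to 2.72%] in the part nearest the end. The intervals of the middle and last parts, the lowest and highest of the 5, did not overlap, while those of the first and last did. Bins are not replicates, so this is a description and no difference between parts was tested. No CpG-decile share is given for these parts, so a difference in CpG density between them was not taken into account.

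Of 24930 gene models, 5150 had a listed bin in the body or within 5 kb upstream, or 20.7%, and 1106 had one within 1 kb of the start, or 4.44%. A single bin was found in 3867 genes, 2 bins in 846, 3 in 259, 4 in 104 and 5 or more in 74. Long genes had a bin more often and a thinner cover. The share of genes with a bin was 7.33% below 5 kb, 49.2% from 100 to 300 kb and 48.5% from 300 kb up. Of the bins of genes from 5 to 20 kb 4.06% were listed, and of those of genes from 300 kb up 1.24%. Median CpG per kb also differed, at 13.7 in genes from 5 to 20 kb and 7.52 in genes from 300 kb up.

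Among genes of at least 50 kb with 3 or more listed bins, C130039O16Rik and Dapp1 were among the most densely listed. C130039O16Rik had 5 of its 15 bins on the list, between an exon bin from 85495001 on chromosome 12 and the promoter bin ending at 85560000. Dapp1, which encodes an adaptor for phosphoinositide signals, had 4 of 12. Its listed bins were the promoter bin, an intron bin and 2 exon bins. The CpG-decile shares of these genes were 5.40% and 4.21%, against 33.3% listed in each.

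D19Wsu162e followed with 4 of 14 bins. Dlgap3, a postsynaptic scaffold gene, Dnmbp, an activator of the GTPase Cdc42, Ptprs, a receptor tyrosine phosphatase, and Zfyve26, a protein of lysosome and autophagy function, had 4 of 15 each. Parvb, the focal adhesion protein beta-parvin, had 5 of 19. Fam38a, the mechanosensitive channel gene also named Piezo1, had 4 of 16. Zfyve26 had all 4 bins in the exon class and no promoter bin, while Ptprs had 2 promoter bins. The Zfyve26 bin from 80400001 to 80405000 lay upstream of the gene, so its exon belongs to another gene model. These genes were ranked by the share shown, so their height is a description.

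Genes with a listed promoter bin and the most bins in all were Rab31, Rps6ka2 and Tacc2, with 6 bins each of 26, 29 and 39. Rab31, a small GTPase of vesicle transport, had its promoter bin with 131 CpG (chromosome 17, 66120001 to 66125000), an upstream intergenic bin that touched it and 4 intron bins, and no exon bin. Rps6ka2, a ribosomal S6 kinase downstream of ERK, had 1 promoter, 2 exon and 3 intron bins. Tacc2, a coiled-coil protein of the centrosome, had the same division. Its bins also fall inside the Fgfr2 model of the annotation, which spans 37 other genes.

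C130039O16Rik and Parvb, named above, came next in this ranking with 5 bins each. They were followed by Ric8b, a chaperone of G protein alpha subunits (5 of 21), Kcnn3, a calcium-activated potassium channel (5 of 32), and Nav1, a microtubule-associated neuron navigator (5 of 32). Etv6, an ETS-family repressor, had 5 of 49 bins. Ndrg4 had 4 of 9, the highest share in this ranking at 44.4%, and lies below the 50 kb limit of the ranking before it. All but Rab31 and Kcnn3 of these genes had at least 1 listed exon bin.

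**Figure D3:**
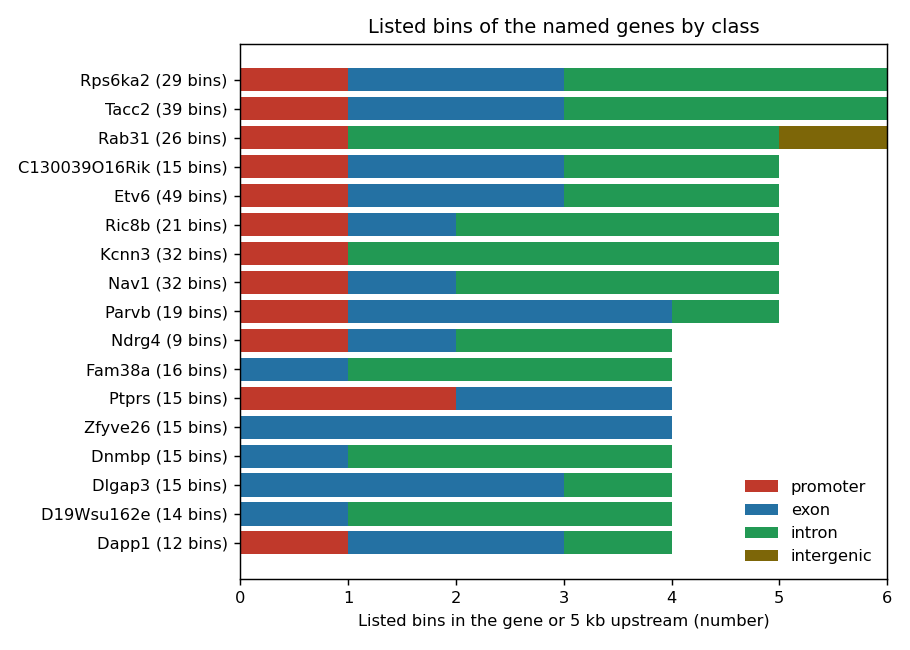
Number of listed bins (x axis) in each of the genes ranked highest by share of bins or by count with a promoter bin (y axis, with the gene's number of bins), coloured by bin class. Rab31, Rps6ka2 and Tacc2 have 6 bins each, and most bins of Rab31 and Kcnn3 are intronic.

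Some long CpG-rich genes had no listed bin. Rbfox3, the neuronal splicing factor known as the antigen NeuN, had 0 of 86 bins listed where the CpG-decile share was 4.61%, and it had 0 MEF bins. Rora, an orphan nuclear receptor, had 0 of 149, and Esrrg, an oestrogen-related receptor, had 0 of 123. The receptor phosphatase gene Ptprm had 0 of 139. Of these, Ptprm and Esrrg had 7 MEF bins each and Rora 2. Limch1, Myo5b, Prkcb, Kif26b, Med12l and Fbxl17, with 64 to 90 bins each, likewise had none. All were picked for having no listed bin and for high CpG density. Their contrast with the CpG-decile share follows from that choice and is a description. Among the 518 ordinary models of at least 300 kb, 249 had a bin.

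Most stretches of listed bins were single bins. With 1.78% of bins listed, single bins would be common in a random scatter too. No count for scattered bins was made, so the sizes do not show listed bins to be isolated. Bins within 10 kb of each other joined into 7395 stretches, of which 6452, or 87.2%, were single bins, 782 had 2, 135 had 3, 24 had 4 and 2 had 5. The median gap between neighbouring bins was 85 kb. Along the chromosomes listed bins were unevenly spread. Of 2401 windows of 1 Mb, 733 had none, the median was 2, and 234 had 10 or more. Windows with none had a median of 4.7 CpG per kb.

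The fullest window, chromosome 19 from 47000001 to 48000000, held 22 listed bins of 200. Of these, 6 lay at Sh3pxd2a, a scaffold protein of invadopodia, 3 at the nucleotidase gene Nt5c2 and 2 each at Calhm2 and Col17a1, a transmembrane collagen of hemidesmosomes. The window on chromosome 5 from 122000001 held 21, among them 3 at Ccdc63 and 3 at Cux2, a homeobox gene of cortical neurons. On chromosome 11 from 119000001 there were 20, with 3 each at Rptor, the mTOR complex scaffold, Sgsh, Slc26a11 and Tbc1d16. On chromosome 3 from 89000001 there were 20, with 5 at Kcnn3 and 2 at Atp8b2. On chromosome 15 from 96000001 there were 19, with 6 at Arid2, 4 at Slc38a1 and 3 at Slc38a4, both amino acid transporters. These windows had 12.4 to 14.2 CpG per kb, and their CpG-decile shares were 3.80% to 4.47% against 9.5% to 11% listed. They were picked for their number of listed bins, so the contrast follows from the choice and is a description.

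The longest stretch without a listed bin was 11.73 Mb on chromosome 15, from 13105001 to 24835000. Its 6 gene models include the cadherin genes Cdh18, Cdh12, Cdh10 and Cdh9. The next was 10.09 Mb on chromosome 1, from 141105001 to 151195000, with the potassium channel gene Kcnt2. On chromosome 4, 10.005 Mb from 71795001 held the receptor phosphatase gene Ptprd. On chromosome 14, 9.33 Mb from 106270001 held Slitrk1, Slitrk5 and Slitrk6, genes of synapse formation, with Spry2. These 4 stretches have 2346, 2018, 2001 and 1866 bins with sequence and a median of 4.4 to 4.6 CpG per kb. The MEF list had 3, 2, 12 and 8 bins in them, where 1.86% of all bins were on that list. The stretches were picked for having no listed ES bin, so that lack follows from the choice and is a description.

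Across chromosomes the listed share ran from 1.24% on chromosome 3 to 2.75% on chromosome 11, a 2.21-fold range. Chromosomes 17, 19, 5 and 4 followed chromosome 11 with 2.42%, 2.40%, 2.18% and 2.05%, and chromosomes 14 and 1 stood next to the lowest, the latter with 1.35%. The CpG-decile shares kept nearly this order, from 1.43% on chromosome 3 to 2.27% on chromosome 11. Across the 19 chromosomes Pearson's r between the listed and the CpG-decile share was 0.972 and Spearman's rho 0.982. With gene density r was 0.769 and rho 0.737. These values describe chromosomes of the same 2 libraries. Chromosome 11 had the largest share relative to its CpG-decile share, 1.21 times it, and chromosome 3 the smallest, 0.870 times.

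**Figure D4:**
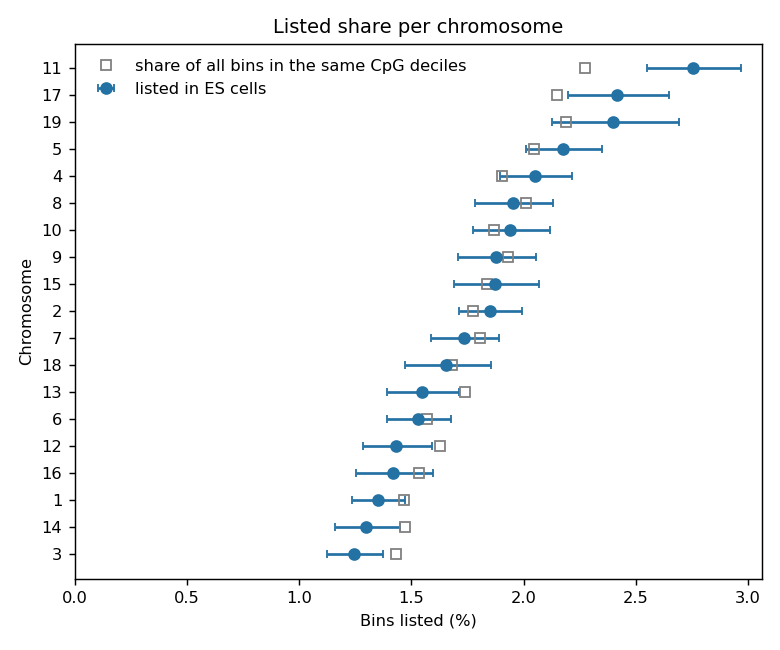
Listed share of bins (%, x axis) on each of chromosomes 1 to 19 (y axis, ordered by share); circles are shares with exact 95% binomial intervals and open squares the share of all bins in the same CpG deciles. Chromosome 11 has the highest share, 2.75%, and chromosome 3 the lowest, 1.24%.

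Distal chromosome ends held more listed bins. When each chromosome was split into 5 equal parts, the share was 1.26% in the part beside the centromere and 1.59%, 1.49%, 1.79% and 2.71% in the parts that follow. The CpG-decile shares were 1.42%, 1.58%, 1.56%, 1.77% and 2.52%. The distal part had the highest share on 11 of the 19 chromosomes.

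Gene groups were described by how many genes had a listed bin and by the listed share of the group's distinct bins. Both stand beside 20.7% of genes and 2.70% of bins over all genes, where the CpG-decile share was 2.35%. The groups were chosen with earlier results of these data known, and their counts are descriptions. Because long genes have more bins, the share of bins is the value to compare.

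Relative to its CpG-decile share, the listed share was highest in histone demethylase and BAF subunit genes. In the BAF complexes, which move and evict nucleosomes, 11 of 23 subunit genes had a bin and 6.73% of bins were listed [4.21% to 10.1%], against 3.48% by CpG decile. Arid2 had 6 of 26 bins and Arid1b, encoding the alternative DNA-binding subunit, 5 of 73, with Pbrm1 at 2 of 22. Without Arid2 the share was 5.24%. Of 31 Polycomb genes, whose products write and read repressive histone marks, 13 had a bin and the share was 4.93% [2.90% to 7.77%] against 2.96%. Kdm2b, which brings a Polycomb complex to CpG islands, had 5 of 31 bins, and without it the share was 3.82%. Ring1, Cbx6 and L3mbtl2 had 1 each.

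Kdm2b also led the histone demethylases, where 6 of 17 genes had a bin and the share was 5.38% [3.04% to 8.71%] against 2.57%. Jmjd1c had 3 bins and Kdm1a, a demethylase of histone H3 lysine 4, had 2. Without Kdm2b the share was 4.03%. Histone methyltransferases had 11 of 31 genes and 3.10% against 2.64%, led by Smyd3 with 4 of 115 bins. Histone deacetylases had 5 of 16 genes and 2.53% against 2.32%. The SNF2 remodelers, the family of LSH itself, had 11 of 28 genes and 2.54% against 2.58%, with Chd2 and Chd7 at 2 bins each. Base excision repair, which removes oxidised cytosines, had 3 of 22 genes and 2.65% against 3.77%. Its 3 genes were Tdg, the glycosylase that excises further oxidised forms of 5hmC, Polb and Parp1, with 1 bin each.

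Among signalling pathways, the LIF-JAK-STAT pathway, which keeps mouse ES cells undifferentiated, had 7 of 28 genes and 2.46% of bins listed [1.07% to 4.79%] against 2.86% by CpG decile. Stat5b had 2 bins, and Il6st, the gp130 receptor subunit that LIF signals through, Jak2, Tyk2 and Socs5 had 1 each. The FGF-MAPK pathway had 13 of 46 genes and 4.42% against 2.43%, but 35 of its 53 listed bins lay in the wide Fgfr2 model, and without it the values were 2.98% and 2.08%. Fgfr1 had 3 of 15 bins and Fgfr4 2 of 6. The Notch pathway had 13 of 32 genes and 5.29% [3.26% to 8.05%] against 3.74%, with the coactivator Maml3 at 5 of 85 bins and the ligand Dll1 at 2 of 4. The Hedgehog pathway had 9 of 20 genes and 4.50% [2.48% to 7.44%] against 2.86%, with the transcription factor Gli2 at 3 of 46 bins. The retinoic acid pathway had 6 of 22 genes and 2.43% against 2.58%.

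Forkhead, SOX and T-box factors had 20 of 71 genes and 4.14% [2.95% to 5.64%] against 3.11%, with Sox5 at 9 of 193 bins and Foxp1 at 5 of 70. Nuclear receptors had 12 of 47 genes and 1.46% [0.834% to 2.35%] against 2.39%, and their leading members Nr4a2, Thra, Hnf4a and Esrrb had 2 bins each.

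Calcium channels had 10 of 25 genes but 1.52% of bins [0.853% to 2.49%] against 2.48%, with Cacna1a at 3 of 52. Ionotropic glutamate receptors had 10 of 17 genes and 1.07% against 1.41%, and potassium channels 26 of 91 genes and 1.79% against 1.74%. GABA and glycine receptors had 2 of 21 genes, Gabrp and Gabbr2, and 0.312% [0.0377% to 1.12%] against 1.24%. Solute carriers had 100 of 348 genes and 3.45% [2.92% to 4.04%] against 2.66%, led by Slc10a7 with 8 of 47 bins and Slc39a11 with 7 of 83.

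Axon guidance receptors and ligands had 30 of 69 genes and 2.29% against 1.89%, led by the secreted ligand Slit3 with 8 of 120 bins and by Nrp2 and Epha4 with 5 each. RhoGEF, RhoGAP and DOCK proteins, which switch small GTPases, had 34 of 59 genes and 3.47% [2.68% to 4.42%] against 2.69%, with Arhgap26 at 8 bins and Arhgef19 at 3 of 5. Adenylyl cyclases and phosphodiesterases had 14 of 33 genes and 2.29% against 1.99%, Pde4d leading with 9 of 302. Kinesins, dyneins and myosins had 37 of 97 genes and 2.58% against 2.79%, with Dnahc8 and Myo3b at 6 each. Integrins had 12 of 31 and 3.22% against 2.68%. Collagens had 11 of 41 and 1.69% against 2.54%, and laminins 4 of 11 and 1.81% against 2.22%.

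Cytosolic ribosomal protein genes had 13 of 77 genes and 6.88% of their 218 bins listed [3.90% to 11.1%] against 4.27%, with Rpl27 and Rps10 at 2 of 3 bins each. With the bin's midpoint required to lie in the gene or the 5 kb upstream the count was 6 genes, and with gene bodies alone 7. Respiratory chain subunits had 12 of 77 genes and 3.90% against 3.49%. Core and linker histone genes had 3 of 79 genes and 2.34% [0.486% to 6.70%] against 4.47%. Cyclins and cyclin-dependent kinases had 15 of 49 genes and 3.56% against 2.59%, with Ccnd3 at 3 bins.

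Keratins had 9 of 46 genes and 6% of 150 bins [2.78% to 11.1%] against 3.77%, with 1 bin each at Krt18, a keratin of simple epithelia, and at Krt5 and Krt2 of the epidermis. Interleukins, chemokines and their receptors had 18 of 124 genes and 2.49% against 2.56%. Defensins and NK lectin receptors had 2 of 77 genes and 0.738% against 0.932%. Neighbouring members of a cluster can share a bin.

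**Figure D5:**
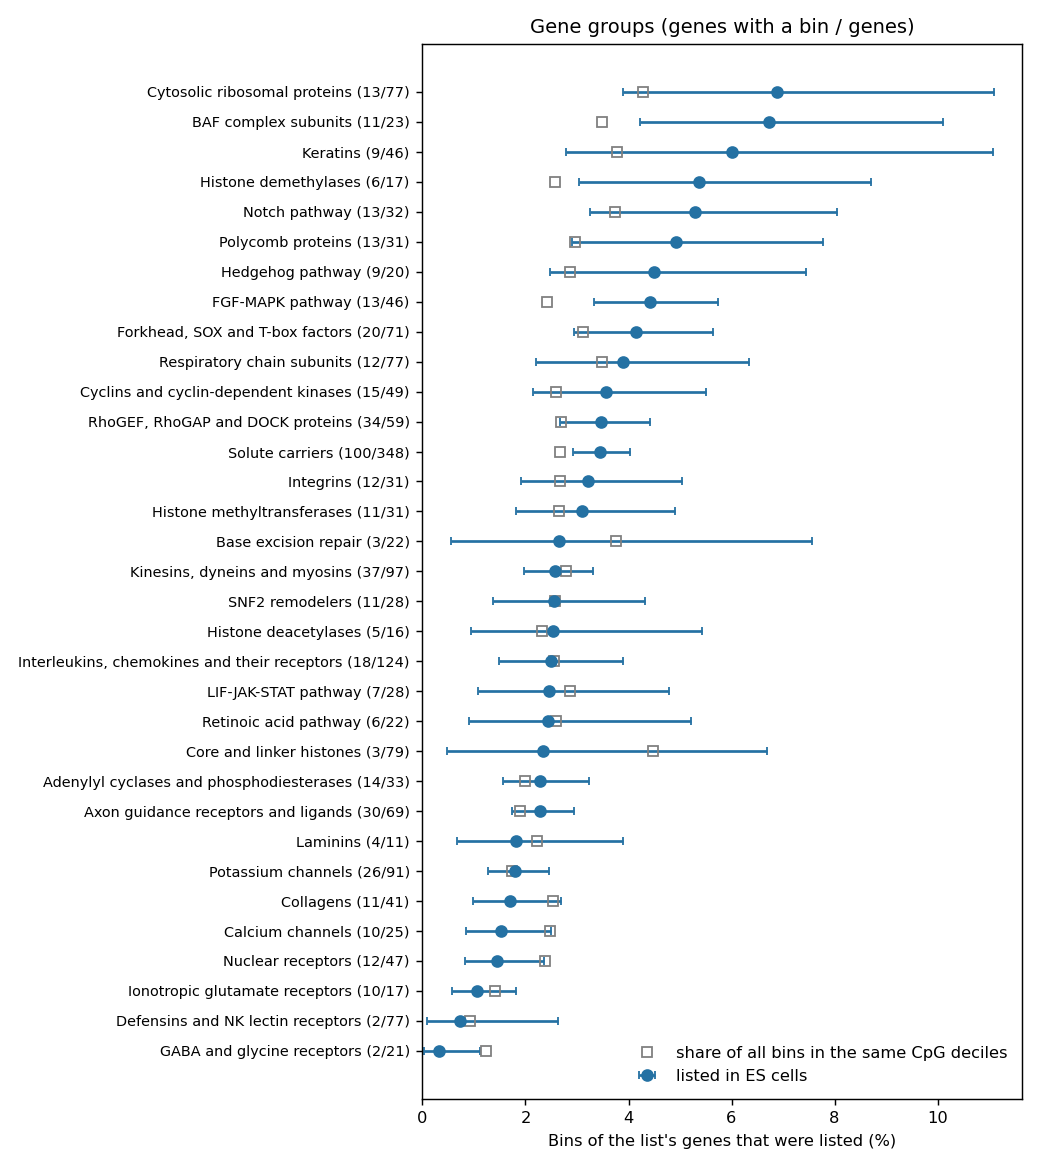
Listed share of the distinct bins of each gene group (%, x axis), with exact 95% binomial intervals, beside the share of all bins in the same CpG deciles (open squares); labels give genes with a bin and genes in the group. Ribosomal protein and BAF genes lie highest, at 6.88% and 6.73%, and GABA and glycine receptors lowest, at 0.312%.

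MicroRNA genes fell in listed bins in 56 of 1468 cases, or 3.81% [2.89% to 4.93%], through 49 distinct bins. Of the 1269 bins that hold a miRNA gene 3.86% were listed [2.87% to 5.07%], against 1.78% of all bins and a CpG-decile share of 2.85%. The bin with most of them was in the retrotransposon-derived gene Rtl1 of the imprinted Dlk1-Dio3 region (chromosome 12, 110830001 to 110835000, exon bin, 136 CpG). It held Mir127, Mir434, Mir432 and Mir136 and the end of Mir433, all on the strand opposite to Rtl1. The bin was not on the MEF list. Another bin (chromosome 6, 31010001 to 31015000) held Mir29a and Mir29b-1, whose 3p products share a seed. The mature RNAs are shown, from RefSeq (GRCm38.p6), with the seed, bases 2 to 8, in capitals. Of the 56 genes, 21 had a mature sequence in that table.
mmu-miR-433-3p: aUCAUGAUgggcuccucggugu
mmu-miR-127-3p: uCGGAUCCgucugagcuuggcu
mmu-miR-434-3p: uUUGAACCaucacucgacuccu
mmu-miR-432: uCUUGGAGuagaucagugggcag
mmu-miR-136-5p: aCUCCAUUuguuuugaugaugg
mmu-miR-29a-3p: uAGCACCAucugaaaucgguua
mmu-miR-29b-3p: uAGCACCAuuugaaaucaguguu
The 29a-3p and 29b-3p seeds are the same 7 letters, and the seeds of the 5 RNAs shown from the Rtl1 bin differ from each other. A further bin held Mir296 and Mir298 (chromosome 2, 174090001 to 174095000). Mir10b lay in a promoter bin of the Hoxd cluster, Mir196a-2 in one of the Hoxc cluster (chromosome 15, 102800001 to 102805000), and Mir1247 in the listed bin richest in CpG. The list does not say whether 5hmC of these bins was read from the miRNA, the host gene or a neighbouring element.

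The MEF list was the nearest comparison within the study. It held 8920 bins on the same chromosomes, 1.86% of bins with sequence, and 14.6% of gene models had a MEF bin. Of the ES bins, 406 were on both lists, which is 4.76% of the ES bins and 4.55% of the MEF bins. Identical to or touching a MEF bin were 974 ES bins, or 11.4%. Touching bins make a wider target, and the share of all bins on or beside a MEF bin was not computed. No CpG-decile share was computed for either overlap, so what goes with CpG density was not taken into account. By class 6.36% of ES intron bins [5.33% to 7.51%] and 3.62% of ES exon bins [2.97% to 4.36%] were also MEF bins. Taken over the MEF list the order was turned, with 4.50% of MEF intron bins and 5.69% of MEF exon bins shared. Of all intron and exon bins with sequence, 2.72% and 2.26% were on the MEF list. Prkce, protein kinase C epsilon, had 4 shared bins, with 8 ES and 22 MEF bins in all. Odz4, Igf1r, the insulin-like growth factor receptor, Chst11, a chondroitin sulfotransferase, and Sez6l had 2 shared bins each. So had Capzb, Cdh23, Col4a2 and Fam38a. Of the 10 most densely listed ES genes, 6 had no MEF bin, and Parvb had 4. These genes are of at least 50 kb, whereas the 14.6% covers models of every length. The count therefore has no matched share beside it. The lists come from single libraries of each cell type, so a difference between them was not tested.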

How the data were processed

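Genomic DNA of ES cells and MEFs, wild type and LSH knockout, was captured for 5hmC through a biotin tag on a modified glucose and sequenced, per the labels' protocols. BWA, SAMtools 1.3.1 and mm9 are named, without their role, per the submitters' processing notes. The sources used here name no caller, threshold, input library or read depth. The positions deposited by the authors are the only values: a chromosome, start, end and bin number per differential 5 kb bin, and no count or level. Depth is unknown, so no precision of 5hmC can be given.

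Bins of chromosomes 1 to 19 with at most 50% undetermined bases were used, with NCBIM37 (mm9) sequence and 24930 GENCODE M1 gene models (protein-coding, lincRNA and processed transcript, the longest locus per name). CpG, GC, islands and repeated 32-base words (1 word in 64 sampled) were computed per bin. A gene was given the bins of its body and 5 kb upstream. The CpG-decile share of a set is the mean, over its bins, of the listed share of their decile of CpG density. Intervals are exact binomial (Clopper-Pearson) and cover counting error alone. No test between conditions was run, since each group has 1 library.

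Genes were named by these rules: the 10 with the highest listed share among models of at least 50 kb with at least 3 listed bins; the 10 with a listed promoter bin and most bins; up to 5 with most bins per gene group; the 5 fullest 1 Mb windows; the 10 with most bins on both lists; up to 10 miRNA genes; and the 10 CpG-richest models of at least 300 kb without a bin. Models containing 10 or more other genes were kept out of the gene rankings. Mir10b, Mir196a-2, Mir1247 and the stretches without a listed bin were picked after their values were seen. The members and the 34 gene groups were chosen with earlier results of these data known, and the glutamate receptor group was narrowed to receptor genes after its values were seen. Some genes and a group that these rules pick are not reported here. Printed windows avoid annotated UTRs, a limit added later. Bin assignment was checked against bedtools, and a planted exon weight was tested on simulated data. Python 3.11.15, numpy 2.4.6, pandas 2.3.3, scipy 1.17.1, numba 0.67.0 and matplotlib 3.10.9 were used.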

Additional observations from a re-analysis of the deposited data

Results flagged for a closer look

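The ES list also held bins outside chromosomes 1 to 19, which no comparison above used. On chromosome X 18 bins were listed of 32419 with sequence, or 0.0555% [0.0329% to 0.0877%]. The CpG-decile share of these bins was 0.766%, and the MEF list held 52 bins on X. The sources used here give neither the sex of the ES cells nor how X was treated in calling. On the mitochondrial chromosome 2 bins were listed, and on unplaced sequence 10.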

How the results depend on the processing

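The share of bins listed was 1.72% with undetermined sequence included and 2.19% over bins with at most 20% repeated words, both through a change in the bins counted. By bin midpoint the promoter, exon, intron and intergenic shares of listed bins were 3.80%, 7.31%, 53.8% and 35.1%. The promoter share was 10.3% with 500 bases either side of a start and 9.87% with protein-coding models only, where the intergenic share was 32.6%. With the start of every transcript, an alternative chosen after seeing the data, promoters held 21.0% and exons 26.1%. Bins with an island were 9.59% of the list by the stricter definition. Windows of 2 Mb without a listed bin were 17.3%, and ES bins identical to or touching a MEF bin 11.4%. Each move follows from how the alternative is built. The other 19 of these values stayed within their interval, or within 1.5 times the main count. Of the values of single groups and chromosomes, 98 stayed and 23 moved: the 19 chromosome shares rose with repeated bins left out, and 4 gene group counts fell, among them defensins and NK lectin receptors from 2 genes to 1 by bin midpoint. No paired analysis was possible because each group has 1 library and the list carries no value per sample. Read depth and signal over background are unknown, so the list cannot show where a change was not detectable.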

Other observations

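Gene biotypes and small RNAs were not described above. Of 1231 lincRNA models 224 had a listed bin, or 18.2% [16.1% to 20.5%], and 70 had one within 1 kb of the start, or 5.69%. Processed transcripts had a bin in 13.3% of cases and a start bin in 5.53%, and protein-coding genes in 21.6% and 4.24%. Median lengths were 8366, 5531 and 15620.5 bp. Small nucleolar RNA genes lay in listed bins in 27 of 1458 cases, or 1.85%, small nuclear RNA genes in 21 of 1331, or 1.58%, and pseudogenes in 97 of 4055, or 2.39%. Of the bins that hold such genes 1.95%, 1.56% and 1.71% were listed, against CpG-decile shares of 1.89%, 1.89% and 2.06%.

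The ES list was not in one ascending order. Within each chromosome its bins formed 3 to 5 ascending runs, 4 on 16 of the 19 chromosomes, while the MEF list had 0 bins out of order. Counted from the end of each chromosome, the runs held 5913 bins (69.3%), 2259 (26.5%), 303 (3.55%), 51 and 1. Median CpG per kb was 12.6, 12.6, 12.8 and 14 in the first 4 of these runs. In these, 4.80%, 4.87%, 2.64% and 5.88% of their bins were also on the MEF list. What set the runs is not given in the sources used here.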
